A study of Homo sapiens with 12 samples.

Results

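Decitabine (DAC) added to all-trans retinoic acid (ATRA) was examined by comparing the 3 libraries of MOLM-13 cells given both drugs (DAC+ATRA) with the 3 libraries of cells given ATRA alone. These are 6 of the 12 libraries of the series, chosen by their labels. The other libraries came from untreated cells and from cells given DAC alone, 3 each, and serve here for the variance estimate and for one side-by-side comparison. Summing the transcript rows of each symbol left 46639 symbols. Of these, 10641 protein-coding genes reached 10 normalised counts in 3 or more of the 12 libraries and entered the test. MOLM-13 is a human acute myeloid leukemia (AML) line that carries a KMT2A-MLLT3 fusion and an internal tandem duplication of FLT3. The labels give 100 nM DAC, added fresh on 3 consecutive days with a daily change of medium, and 1 µM ATRA. All 6 libraries carry a label of 72 h, although the methods of the study describe ATRA as given together with the last DAC dose, so the time in ATRA may be shorter than the label. The medium held human GM-CSF, a myeloid growth factor, in every group. The replicates are described as technical triplicates of 1 line, so the p-values measure only the spread between these libraries.

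DAC is a cytidine analog that is built into DNA during replication and traps DNA methyltransferase 1, so that CpG methylation is lost as cells divide. ATRA is the ligand of the retinoic acid receptors, which bind DNA together with retinoid X receptors, and it drives maturation of promyelocytes into granulocytes. DNA methylation was not measured in these libraries, which hold RNA only.

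The question put by this comparison is which transcripts DAC changes when the retinoid is present in both arms. Of the 10641 genes, 1270 (11.9%) were called at an adjusted p under 0.01, with 689 higher (6.47%) and 581 lower (5.46%) in DAC+ATRA. In every called gene the 3 DAC+ATRA libraries lay wholly above or wholly below the 3 ATRA libraries, and over all genes tested 21.5% lay above and 18.4% below in this way. More than 2-fold changes were found for 296 of the higher and 240 of the lower genes, and more than 8-fold changes for 38 and 24. Genes that rose had a median level of 172 normalised counts with ATRA alone and 325 with both drugs, and genes that fell went from a median of 585 to 304. Fold changes are on the scale of log2(normalised count + 1), where the median over all genes tested was 0.03. The most abundant genes that moved were PLEK, which encodes the platelet and leukocyte substrate pleckstrin and rose (20479.7, 19611 and 17326 to 33629, 30965 and 31446 normalised counts, log2 0.74 ± 0.11), and SLC2A5, the fructose transporter, which fell (58517, 67649 and 70552 to 30705, 30989.7 and 31320.4, log2 -1.08 ± 0.10; limma adjusted p = 6.32e-05 and 3.26e-07).

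**Figure D1:**
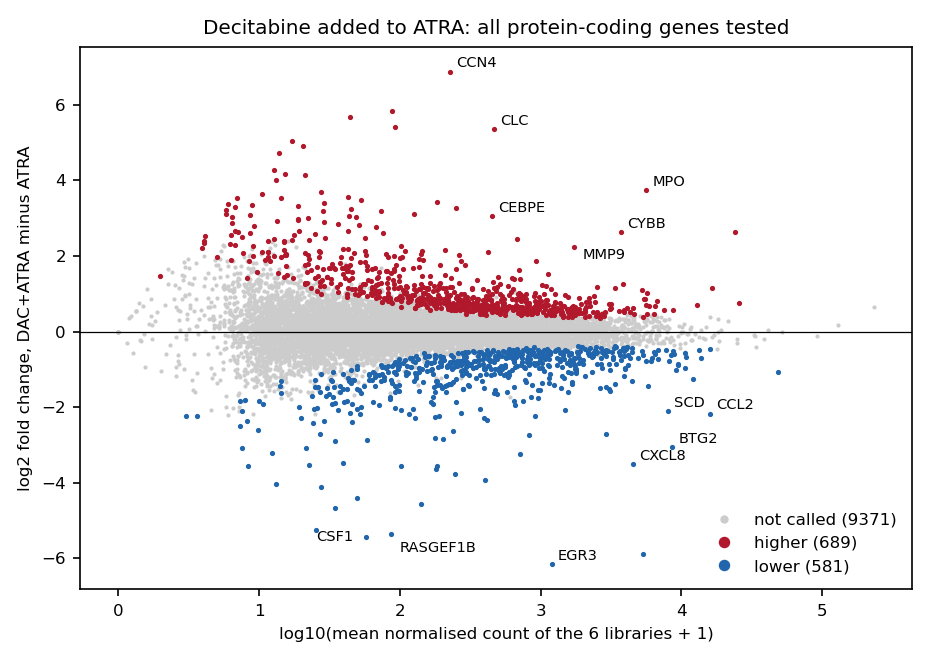
Log2 fold change of each gene tested (vertical axis, DAC+ATRA minus ATRA) against the log10 of its mean normalised count plus 1 over the 6 libraries. The 689 genes called higher and 581 called lower are coloured, and the named genes reach from EGR3 at -6.16 ± 0.32 to CCN4 at 6.87 ± 0.60 (log2 ± SE).

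Sequencing depth was 5.61 M to 7.16 M reads per DAC+ATRA library and 8.36 M to 10.7 M reads per ATRA library. Reads of RN7SL1, the RNA of the signal recognition particle, made up 10.1% to 12.96% and 7.84% to 12.8% of these, and mitochondrial reads 1.20% to 1.65% and 1.22% to 1.58%. Thinning all libraries to equal depth left 597 genes higher and 580 lower. Of 11 markers of the myeloid identity of MOLM-13, 10 were tested, and CD68 was listed at 0 in all 6 libraries. The summed level of these 11 was 22291 to 27577 in ATRA and 67725 to 72198 in DAC+ATRA, where LYZ and MPO made up most of it. Of these markers MPO, LYZ and CEBPA were called higher, MEIS1 and HOXA9 lower, and the others tested were not called. Among markers of other lineages, 5 of 7 erythroid, 5 of 7 megakaryocyte, 3 of 7 T cell, 3 of 6 B cell and 2 of 5 NK cell markers had no read in any of the 6 libraries, and the summed level of each of these lists was at most 40.8. KLF1, an erythroid factor, and CD3D, a T cell receptor subunit, were called higher at low levels. KLF1 went from no read to 15.4, 3.38 and 10.2 normalised counts, and CD3D from 10.8, 3.72 and 2.51 to 28, 21.4 and 19.4. Epithelial and stromal markers had 5 of 8 members at 0 and a sum of 116 to 151 in ATRA and 81.0 to 126 in DAC+ATRA. The part of these cell types in the results was not tested. In bulk RNA a change in the number of cells of a type cannot be told apart from a change in RNA per cell.

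Granule contents mark the maturation of granulocytes. Of 19 granule protein genes tested, 7 rose and 1 fell, with a median log2 fold change of 0.43. MPO, the myeloperoxidase of primary granules (chromosome 17, 58269855 to 58280935, GRCh38), had 1059, 776 and 580.2 normalised counts in the ATRA libraries and 9201, 10966 and 11105 in the DAC+ATRA libraries. The lowest DAC+ATRA library lay far above the highest ATRA library, and the log2 fold change was 3.73 ± 0.18 (SE), limma adjusted p = 3.39e-11. LYZ, which encodes lysozyme and is one of the most abundant of these transcripts, went from 9402, 5774 and 5282 to 43517, 39104 and 39835 (log2 2.63 ± 0.18 (SE), limma adjusted p = 5.74e-09). For the gelatinase gene MMP9 the counts were 550.1, 562 and 699 against 2371, 2971 and 3257 (log2 2.24 ± 0.17 (SE), limma adjusted p = 2.28e-08). CTSG, the protease cathepsin G, rose less (log2 1.32 ± 0.15, limma adjusted p = 3.09e-06). CST7, an inhibitor of lysosomal cysteine proteases, was the member that fell (log2 -0.49 ± 0.12, limma adjusted p = 0.0069), a call lost in 9 of 24 alternative settings. ELANE, the neutrophil elastase, stayed under 10 normalised counts in all 6 libraries and its groups overlapped. Untreated libraries averaged 41628 ± 6449 normalised counts of LYZ, 1513 ± 1.91 of MPO and 14.3 ± 2.69 of MMP9 (SD, n = 3). With both drugs LYZ was thus near its untreated level, and MPO and MMP9 were far above theirs.

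Among 19 genes of neutrophil differentiation and the NADPH oxidase 6 rose and 1 fell (median 0.33). CYBB, the catalytic subunit of the phagocyte oxidase, went from 1209, 930.2 and 988 to 6525, 6200.0 and 6429.7 normalised counts (log2 2.62 ± 0.12 (SE), limma adjusted p = 1.63e-11). NCF1, a cytosolic subunit of the same oxidase, moved the other way, from 10546, 12858 and 13666 to 5617, 6189.8 and 6329 (log2 -1.02 ± 0.11 (SE), limma adjusted p = 1.60e-06), and it has near-identical pseudogenes that can share its reads. The groups did not overlap in either gene. CEBPE and CD177, described below, belong to this list. C5AR1, the receptor of complement C5a, rose at a low level (0, 0 and 2.51 to 9.8, 10.1 and 10.2; log2 2.86 ± 0.45, adjusted p = 1.28e-04), and CXCR1, an interleukin 8 receptor, overlapped between groups (adjusted p = 0.638).

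Eosinophil genes were also among those that rose. Their list was drawn up after the values were seen and so carries no test of its own: 6 of 9 tested members rose, none fell, and the median log2 fold change was 1.59. CLC, the Charcot-Leyden crystal protein of eosinophils and basophils (chromosome 19, 39731255 to 39738029), had 26, 26.8 and 13.4 normalised counts with ATRA alone and 979.9, 890.4 and 852 with both drugs (log2 5.36 ± 0.21 (SE), limma adjusted p = 1.69e-12). The highest ATRA library held a small part of the lowest DAC+ATRA library. EPX, the eosinophil peroxidase, went from 96.8, 63.3 and 101 to 283, 324 and 276 (log2 1.77 ± 0.18), and PRG2, the major basic protein, from 50.2, 39.4 and 30.1 to 125, 141 and 98 (log2 1.59 ± 0.23; limma adjusted p = 1.08e-06 and 6.57e-05). The ribonuclease gene RNASE2 rose (log2 1.24 ± 0.17), while its neighbour RNASE3 did not pass the test (log2 0.37 ± 0.19, limma adjusted p = 0.178). Both share sequence, so reads may be split between them. The receptor genes IL5RA and CCR3 were not called (adjusted p = 0.394 and 0.281). Untreated libraries averaged 734 ± 165 normalised counts of EPX and 1134 ± 210 of PRG2 (SD, n = 3). Both genes thus stayed below the untreated level with both drugs. CLC averaged 126 ± 27.0 in untreated libraries, below its DAC+ATRA level. Of 8 markers of mast cells, eosinophils and basophils, CPA3 and MS4A2 had no read, and the summed level of the list was 129 to 174 in ATRA and 1226 to 1391 in DAC+ATRA.

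**Figure D2:**
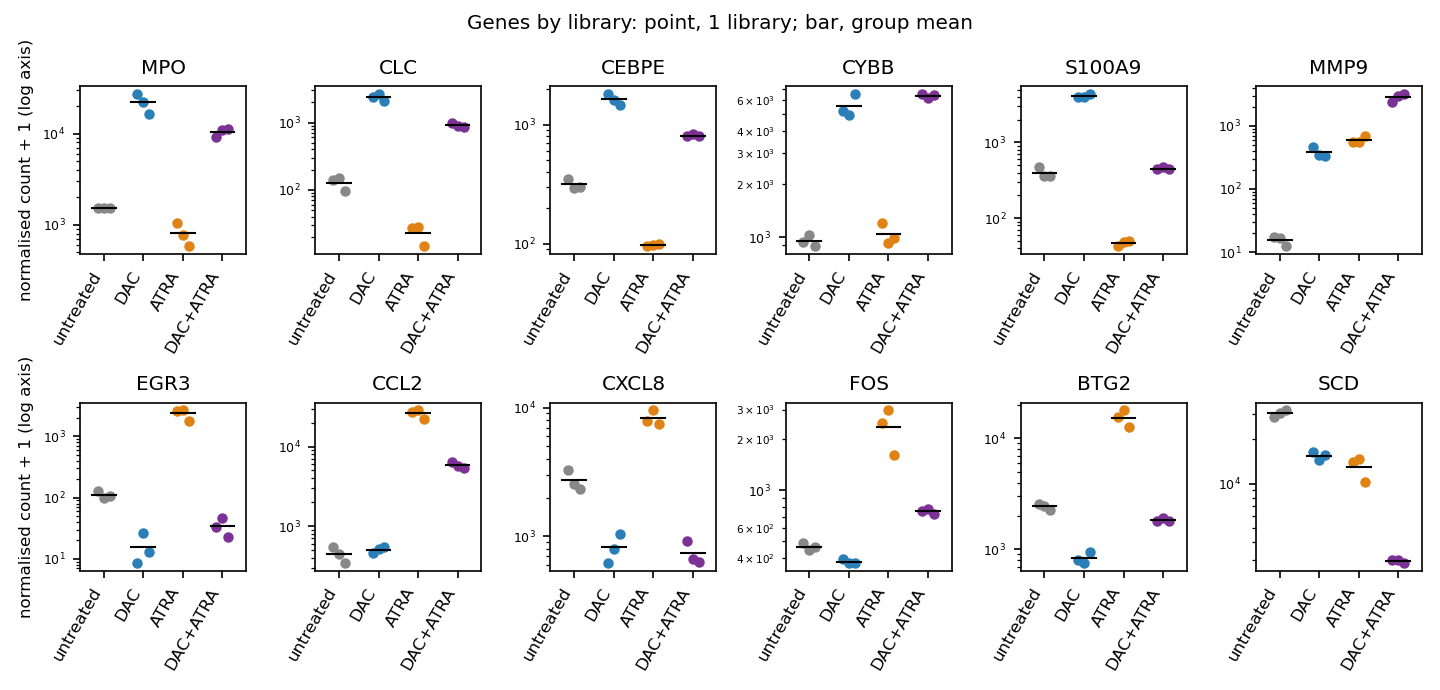
Normalised counts plus 1 (log axis) of 12 genes in all 12 libraries, with a point per library and a bar at the group mean. MPO, CLC, CEBPE, CYBB, S100A9 and MMP9 lie higher in DAC+ATRA than in ATRA, and EGR3, CCL2, CXCL8, FOS, BTG2 and SCD lie lower, with no overlap between the 3 libraries of each.

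Monocyte and macrophage markers went in both directions, with 5 of 30 higher, 7 lower and a median of -0.08. SIGLEC1, a sialic acid receptor of macrophages, rose from 31.4, 30.5 and 25.9 to 77, 108 and 99 (log2 1.65 ± 0.33 (SE), limma adjusted p = 0.00138). TLR2 (log2 1.03 ± 0.18) and the scavenger receptor CD36 (0.90 ± 0.15) also rose, as did CLEC12A from at most 1 read per library (limma adjusted p = 3.12e-04, 1.92e-04 and 4.47e-04). On the lower side were FCGR2B, the inhibitory Fc receptor (-1.92 ± 0.26), TREM1, an amplifier of myeloid inflammation (-1.85 ± 0.14), the lectin CLEC10A (-1.85 ± 0.45) and the costimulatory ligand CD80 (-1.52 ± 0.36; limma adjusted p = 2.81e-05, 2.09e-08, 0.00579 and 0.00453). CLEC10A lost its call in 9 of 23 settings, among them each that left out an ATRA or DAC+ATRA library (adjusted p up to 0.182), and CD80 in 5 of 23. Without DAC+ATRA replicate 3 the count of lower members was 4. S100 genes, whose proteins bind calcium and act as alarmins, had 3 of 10 members higher and 1 lower (median 0.64). S100A9, a subunit of calprotectin, went from 41.2, 47.6 and 48.5 to 441, 466 and 441 (log2 3.27 ± 0.13 (SE), limma adjusted p = 1.54e-12), and its partner S100A8 was far less abundant (3.58, 1.49 and 6.69 to 7.0, 12.4 and 20.4, adjusted p = 0.00756, lost in 13 of 23 settings). S100P also rose, and S100A10, the annexin A2 partner, fell from 139.8, 161 and 151 to 68.6, 65.3 and 67.4 (log2 2.48 ± 0.21 and -1.15 ± 0.17; limma adjusted p = 7.57e-08 and 7.83e-05).

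Large rises were also found in several membrane and matrix genes, some of which stand in other lists too. CCN4, a secreted matricellular protein of the WNT pathway, went from 1.79, 3.72 and 3.34 to 465, 466 and 423 normalised counts (log2 6.87 ± 0.60 (SE), limma adjusted p = 1.52e-07). STAB1, a scavenger receptor, went from 3.58, 2.23 and 0.836 to 143, 179 and 192, and NAV3, a microtubule-binding protein, from 6.27, 2.98 and 1.67 to 179, 163 and 197. CD177, the neutrophil surface partner of proteinase 3, went from 23.3, 40.2 and 28.4 to 301, 311 and 385. The ATRA levels of CCN4, STAB1 and NAV3 rest on at most 7 reads per library, so their fitted fold changes depend on the pseudocount, and none of these 4 genes had overlapping groups. Their log2 fold changes were 5.83 ± 0.34 for STAB1, 5.40 ± 0.30 for NAV3 and 3.42 ± 0.23 for CD177 (limma adjusted p = 6.13e-10, 2.75e-10 and 4.91e-09). Among called genes with a mean of at least 50 normalised counts in the higher group, the 12 largest rises on this scale also included ITGA9, an integrin alpha chain (3.49 ± 0.29), PLAAT3, a phospholipase (3.41 ± 0.49), MAGEB2 (3.56 ± 0.28) and DCAF4L1 (3.24 ± 0.29).

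A set of 13 genes was switched on relative to ATRA alone: each had at most 3 reads in every ATRA library and at least 10 normalised counts in every DAC+ATRA library. ZNF595, a zinc finger gene, had 0, 0.744 and 1.67 normalised counts without DAC and 84, 70.9 and 103 with it. PRG3, an eosinophil granule protein, had 0.896, 0 and 0 and 47.6, 49.5 and 19.4. INSYN2B had no read in ATRA and 30.8, 31.5 and 33.7 in DAC+ATRA, and GTSF1, a piRNA pathway factor of the germline, no read and 25.2, 30.4 and 21.4. Against a floor of 3 reads per library these last genes were at least 12.9-fold and at least 10.4-fold higher. VNN1 reached 19.6, 27 and 36.8 and the receptor phosphatase PTPRG 26.6, 28.1 and 21.4. LINGO4, MT1H, MBD3L3, GPRIN3, TSPAN16, JPH1 and LOXL4 complete the set. Of the 13, 8 were also called higher with DAC alone against untreated cells, where 4.29% of all genes tested and 32.8% of the 689 higher genes were. At most 3 reads in every untreated library were found for 8 of the 13, and in every untreated and DAC library for 4. The set is thus not one of genes silent without drug. PRG3, MT1H and JPH1 averaged 27.9, 41.7 and 57.2 normalised counts in untreated libraries. MT1H and JPH1 averaged less than that with both drugs (23.1 and 11.4). The reverse set held 5 genes, CSF1, EMP1, NR4A1, ODF3L1 and RRAD. EMP1, a membrane protein of epithelial and myeloid cells, went from 51.1, 52.1 and 41 to 0, 1.13 and 0, and RRAD, a small GTPase, from 19.7, 31.3 and 12.5 to 2.8, 0 and 2.04.

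The promoter windows below are shown because DAC acts on CpG sites. They belong to the 3 switched-on genes of highest level and 3 of the largest fitted falls for which a window was used, from the RefSeq table of build GRCh38.p14. Each run is the 250 bases before the annotated start, read 5′ to 3′ on the strand of the gene, with each CpG in capitals. INSYN2B, VNN1, EGR3, CSF1 and HCAR2 are named only. The windows held 10 CpG sites for ZNF595 (chr4:53071-53320, plus strand), 0 for PRG3 (chr11:57381151-57381400, minus strand) and 8 for GTSF1 (chr12:54473603-54473852, minus strand). For genes that fell they held 31 for RASGEF1B (chr4:81471908-81472157, minus strand), 13 for CCN2 (chr6:131951373-131951622, minus strand) and 8 for EGR2 (chr10:62819168-62819417, minus strand).
ZNF595: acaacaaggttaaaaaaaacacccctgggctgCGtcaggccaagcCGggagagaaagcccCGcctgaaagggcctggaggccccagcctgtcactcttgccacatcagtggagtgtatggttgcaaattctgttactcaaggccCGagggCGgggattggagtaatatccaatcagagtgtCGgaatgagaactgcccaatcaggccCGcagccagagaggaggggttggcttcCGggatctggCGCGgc
PRG3: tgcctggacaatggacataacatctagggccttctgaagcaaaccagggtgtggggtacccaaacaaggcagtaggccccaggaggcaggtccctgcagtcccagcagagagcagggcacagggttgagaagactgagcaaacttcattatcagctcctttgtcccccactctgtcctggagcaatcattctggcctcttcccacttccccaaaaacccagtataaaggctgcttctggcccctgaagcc
GTSF1: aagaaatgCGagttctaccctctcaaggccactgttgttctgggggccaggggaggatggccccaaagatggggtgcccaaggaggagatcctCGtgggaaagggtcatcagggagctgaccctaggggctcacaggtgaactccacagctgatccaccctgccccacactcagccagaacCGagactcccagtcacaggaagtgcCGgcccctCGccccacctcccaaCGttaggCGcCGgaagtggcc
RASGEF1B: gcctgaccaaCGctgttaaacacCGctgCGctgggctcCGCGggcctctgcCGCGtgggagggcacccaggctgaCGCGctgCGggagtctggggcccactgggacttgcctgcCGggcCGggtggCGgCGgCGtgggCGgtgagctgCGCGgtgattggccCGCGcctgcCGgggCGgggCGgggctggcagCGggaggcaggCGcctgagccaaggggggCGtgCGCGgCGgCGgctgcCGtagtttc
CCN2: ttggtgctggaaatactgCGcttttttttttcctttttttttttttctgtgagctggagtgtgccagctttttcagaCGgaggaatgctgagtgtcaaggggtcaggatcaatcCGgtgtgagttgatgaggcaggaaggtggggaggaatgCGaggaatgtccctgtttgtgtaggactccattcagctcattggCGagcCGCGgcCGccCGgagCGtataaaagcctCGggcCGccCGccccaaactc
EGR2: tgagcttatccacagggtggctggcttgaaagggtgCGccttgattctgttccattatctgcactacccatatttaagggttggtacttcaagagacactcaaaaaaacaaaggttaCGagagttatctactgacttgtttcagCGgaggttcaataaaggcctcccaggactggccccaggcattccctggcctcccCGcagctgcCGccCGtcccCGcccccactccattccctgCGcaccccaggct
The 3 windows of switched-on genes held 10 (ZNF595), 0 (PRG3) and 8 (GTSF1) CpG sites, and those of the falling genes 31 (RASGEF1B), 13 (CCN2) and 8 (EGR2), too few windows for a comparison. Taken as 300 bases, these windows held 12 (ZNF595), 0 (PRG3), 10 (GTSF1), 32 (RASGEF1B), 15 (CCN2) and 9 (EGR2). On that length the median was 26 CpG sites over the 8648 genes tested that had a window. It was 14 over all 27303 RefSeq windows, many of genes not tested here. A comparison of CpG content or of the retinoid receptor motif AGGTCA between called and uncalled genes is not drawn here. Only 537 of 689 higher and 454 of 581 lower genes (under 80%) matched a window, as did 8648 of all 10641 genes tested.

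EGR3, an immediate early gene, fell by a wide margin. Immediate early genes are transcription factors and feedback regulators that cells switch on within minutes of a stimulus. Their list was also drawn up after the values were seen: 28 of 35 tested members fell, none rose, and the median log2 fold change was -1.28. EGR3 went from 2609, 2656 and 1799 normalised counts in ATRA to 32.2, 45 and 21.4 in DAC+ATRA (log2 -6.16 ± 0.32 (SE), limma adjusted p = 7.45e-11), and EGR2 from 90.5, 122 and 71.1 to 2.8, 3.38 and 4.08 (log2 -4.41 ± 0.47 (SE), limma adjusted p = 1.61e-06). In untreated libraries EGR3 averaged 109.7 ± 15.1 normalised counts (SD, n = 3). Its DAC+ATRA level was thus below the untreated level, and its ATRA level far above it. FOS, the partner of JUN in the AP-1 complex, had 2487, 2976 and 1612 normalised counts with ATRA alone and 759, 779 and 721 with both drugs (log2 -1.60 ± 0.16 (SE), limma adjusted p = 5.73e-07). The phosphatase gene DUSP1, which switches off MAP kinases, had 1313, 1578 and 961 against 179, 122 and 106 (log2 -3.24 ± 0.19 (SE), limma adjusted p = 8.14e-10). BTG2, an antiproliferative gene and p53 target, went from 15552, 17986 and 12605 to 1817, 1929 and 1784 (log2 -3.05 ± 0.12 (SE), limma adjusted p = 1.69e-12). In none of these 5 genes did the groups overlap. Among other members KLF10 (-3.76 ± 0.27), the orphan receptor NR4A1 (-3.52 ± 0.48), NAB2 (-2.80 ± 0.20), KLF6 (-2.63 ± 0.19), FOSB (-2.15 ± 0.29), KLF4 (-2.05 ± 0.23), EGR1 (-1.63 ± 0.21) and JUN (-1.14 ± 0.17) fell. The 7 not called were MYC (0.75 ± 0.23, adjusted p = 0.0244), SPRY4, DUSP2, SRF, DUSP4, SGK1 and FOSL2. Without any one library 26 to 28 members were called lower.

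**Figure D3:**
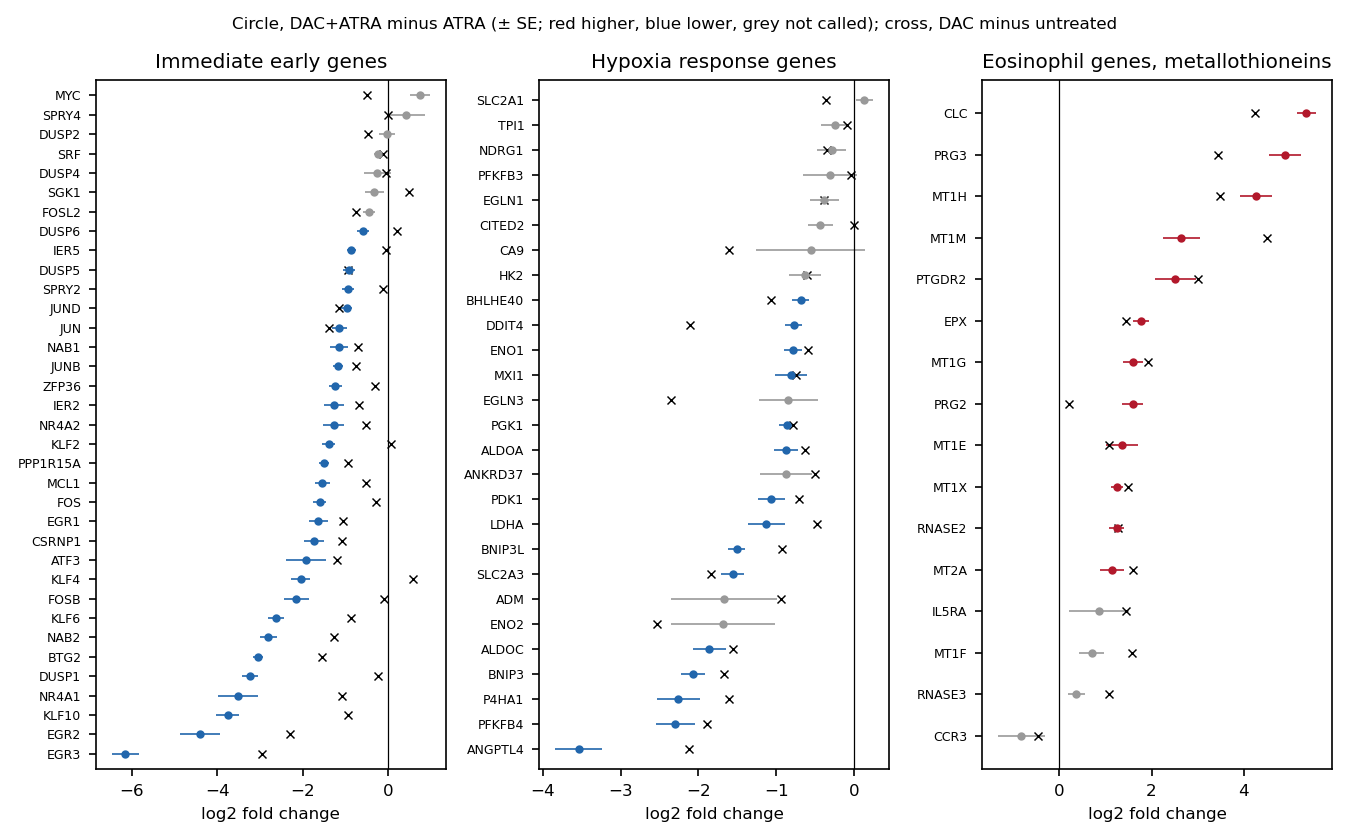
Log2 fold change of each tested member of 4 gene groups drawn up after the values were seen, as a circle with its SE for DAC+ATRA minus ATRA and a cross for DAC minus untreated. In the left panel 28 of 35 immediate early genes are called lower, in the middle 15 of 27 hypoxia response genes are called lower, and in the right panel 12 of 16 eosinophil genes and metallothioneins are called higher.

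In the wider list of myeloid and immediate early transcription factors 16 of 41 fell and 3 rose (median -0.48). CEBPE, a factor of terminal granulocyte maturation, rose from 94.1, 96 and 99.5 to 794, 831 and 794 (log2 3.05 ± 0.12 (SE), limma adjusted p = 1.54e-12). MYB, a factor of progenitor cells, went from 86, 70.7 and 38.5 to 211, 197 and 204 (log2 1.71 ± 0.22 (SE), limma adjusted p = 1.30e-05), and CEBPA, the driver of granulocyte commitment, rose less (log2 0.56 ± 0.14, adjusted p = 0.0055), a call lost in 8 of 24 settings. Outside this list TBX21, a factor best known from T cells, fell from 252, 143 and 161 to 19.6, 7.88 and 18.4 (log2 -3.57 ± 0.59 (SE), limma adjusted p = 2.40e-04). In the set of HOXA genes with MEIS1 and PBX3, which KMT2A fusions keep active, 3 of 10 fell and none rose (median -0.29). All 3 had separate groups. MEIS1 went from 661, 598 and 577 to 262, 280.3 and 289 (log2 -1.14 ± 0.13 (SE), limma adjusted p = 5.21e-06). HOXA9 had 1061, 1057 and 872 against 639.7, 549 and 611 (log2 -0.73 ± 0.12 (SE), limma adjusted p = 3.08e-04), and HOXA5 fell by a like amount (log2 -0.78 ± 0.17, adjusted p = 0.00214).

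Of 28 cytokine, chemokine and growth factor genes 8 fell and 2 rose, with a median of -0.44. CSF1, the macrophage growth factor, went from 111, 149.6 and 72.7 to 1.4, 2.25 and 1.02, and CXCL8, the neutrophil chemoattractant, from 7884, 9548 and 7481 to 918, 669 and 636 (log2 -5.42 ± 0.38 and -3.50 ± 0.17; limma adjusted p = 7.52e-09 and 5.35e-11). The monocyte chemoattractant gene CCL2 had 27313, 28630.4 and 22279.5 against 6337, 5692 and 5315 (log2 -2.17 ± 0.14 (SE), limma adjusted p = 2.45e-09). SPP1, or osteopontin, also fell (-2.40 ± 0.38), and TNFSF13B, a B cell survival factor, rose beside CCN4 (0.85 ± 0.16; limma adjusted p = 1.62e-04 and 7.70e-04). In DAC+ATRA the levels of CSF1, CCN2, EGR2 and RASGEF1B rest on at most 4 reads per library, so their fitted fold changes depend on the pseudocount. CCN2, another matricellular gene, went from 60.03, 90.8 and 46 to 0, 2.25 and 4.08 (log2 -4.65 ± 0.60 (SE), limma adjusted p = 1.48e-05).

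Receptor genes had 4 of 25 lower (16%) and 1 higher (4%, under the 6.47% of all genes tested), with a median of -0.07. KIT, the stem cell factor receptor, fell from 536, 899.7 and 786 to 164, 277 and 271 (log2 -1.64 ± 0.34 (SE), limma adjusted p = 0.00167). IL10RA (-0.80 ± 0.12), CCR2 (-0.64 ± 0.11) and CCR1 (-0.59 ± 0.13) fell too, while IL17RA rose (0.87 ± 0.13). The hydroxycarboxylic acid receptors HCAR2 and HCAR3 fell from 319, 272 and 204 to 26.6, 2.25 and 14.3 and from 374, 375 and 243 to 30.8, 27 and 19.4, but these neighbours are near-identical and their reads may be split wrongly. Neither receptor had overlapping groups. Among integrins and adhesion molecules 5 of 19 fell and 1 rose (median -0.06). ICAM1, the ligand of leukocyte integrins, went from 4387, 4715 and 3749 to 1425, 1656 and 1533 (log2 -1.47 ± 0.12 (SE), limma adjusted p = 4.93e-08). CD44, the hyaluronan receptor, had 86, 60.3 and 66 against 14, 18 and 13.3 (log2 -2.15 ± 0.26), and ITGAX, a chain of complement receptor 4, 967, 1153 and 1176 against 413, 462 and 484 (log2 -1.27 ± 0.13). ITGB5 fell too (-1.13 ± 0.12) and PECAM1 rose (0.43 ± 0.11, adjusted p = 0.00691, lost in 8 of 24 settings).

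Coagulation genes were split, with 3 of 12 higher and 3 lower (median 0.55). THBS1, or thrombospondin 1, rose from 4294, 3548 and 3527 to 7321, 7733 and 7882 (log2 1.02 ± 0.17 (SE), limma adjusted p = 2.37e-04), together with PROCR, the protein C receptor (2.19 ± 0.24), and F13A1, the factor XIII chain (1.06 ± 0.11). The groups did not overlap in any gene whose values are given here. Tissue factor F3 fell from 238, 352 and 329 to 113, 129 and 95 (log2 -1.43 ± 0.17 (SE), limma adjusted p = 6.95e-06), and thrombomodulin THBD from 11008, 14268 and 11854 to 6645, 6721 and 6518 (log2 -0.89 ± 0.12 (SE), limma adjusted p = 2.36e-05). Of 17 prostaglandin and leukotriene genes 2 rose and 4 fell (median -0.00). PTGES, the prostaglandin E synthase, had 399, 428 and 372 against 1355, 1421 and 1612 (log2 1.87 ± 0.27 (SE), limma adjusted p = 5.89e-05), and LTC4S rose at a low level (2.14 ± 0.40). PTGS2, or cyclooxygenase 2, fell from 246, 384 and 217 to 89.6, 116 and 105 (log2 -1.40 ± 0.21 (SE), limma adjusted p = 9.08e-05), with ALOX12 (-0.63 ± 0.13), PLA2G4A (-0.63 ± 0.13) and PTGER4 (-0.55 ± 0.11).

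**Figure D4:**
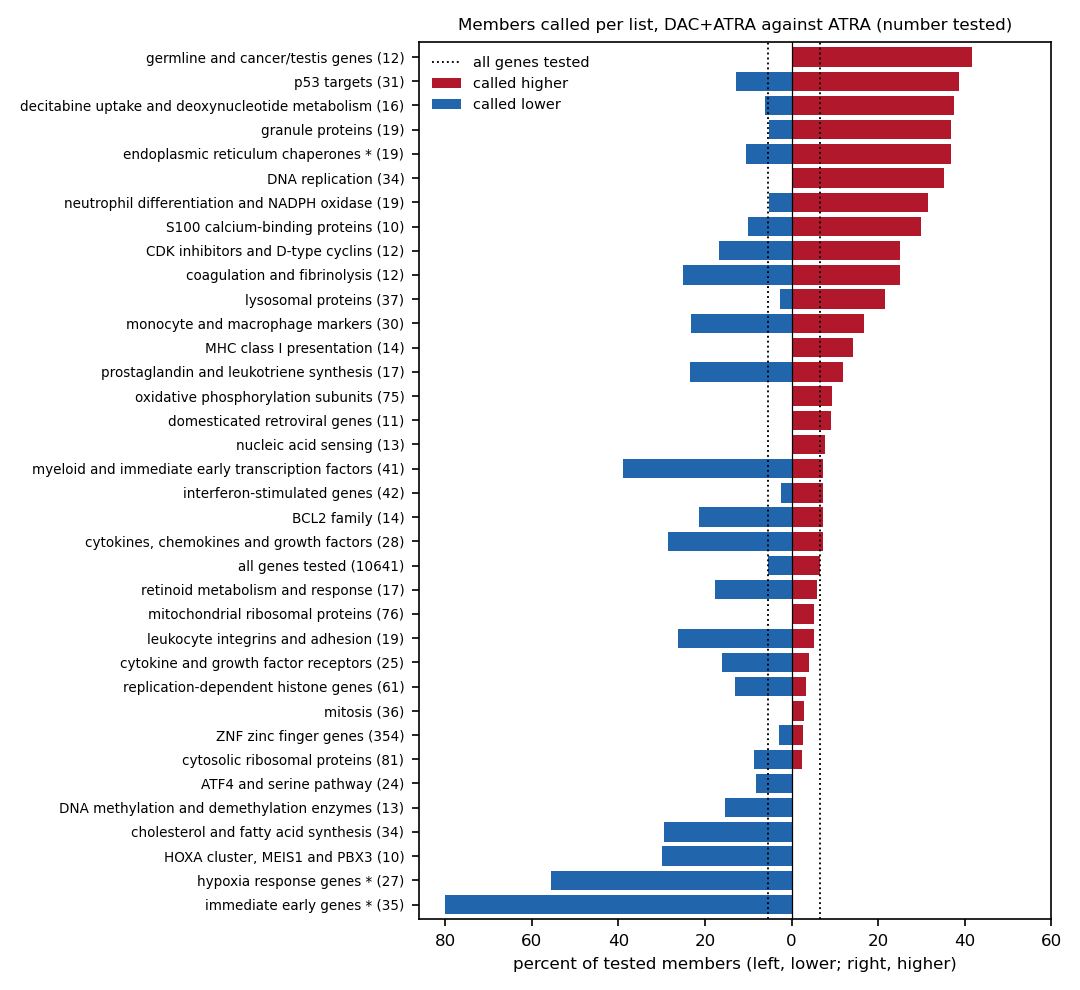
Percent of the tested members of each list that were called lower (blue, to the left) or higher (red, to the right) in DAC+ATRA against ATRA, for lists with at least 10 tested members, whose number is in brackets. Dotted lines mark all genes tested, 6.47% higher and 5.46% lower. An asterisk marks lists drawn up after the values were seen.

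Lipid synthesis supplies membranes and is driven by SREBP factors. Of 34 cholesterol and fatty acid genes 10 were lower and none higher, 30 had a negative log2 fold change, and the median was -0.47. The list also held genes of sterol export and sensing, ABCA1, ABCG1, NR1H3 and MYLIP. Of these, ABCA1 was among the 10 (log2 -0.74 ± 0.14 (SE), limma adjusted p = 7.81e-04). SCD, the stearoyl-CoA desaturase, went from 14134, 14707 and 10203 to 3025, 3018 and 2882 (log2 -2.11 ± 0.12 (SE), limma adjusted p = 4.02e-10). INSIG1, the sterol-dependent anchor of SREBP, had 1261, 1329 and 927 against 398, 280.3 and 308 (log2 -1.83 ± 0.15). The groups did not overlap in either gene (limma adjusted p = 3.84e-08 for INSIG1), and FDPS of the mevalonate pathway fell at a lower level (-1.60 ± 0.34).

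A list of hypoxia response genes, drawn up after the values were seen, had 15 of 27 members lower, none higher and a median of -0.86. ANGPTL4, an inhibitor of lipoprotein lipase, went from 276, 434 and 294 to 22.4, 30.4 and 29.6 (log2 -3.54 ± 0.30 (SE), limma adjusted p = 9.98e-08). BNIP3, a mitophagy receptor, had 1956, 3268 and 2045 against 582, 559 and 538 (log2 -2.07 ± 0.16 (SE), limma adjusted p = 1.94e-08). Glycolytic and glucose transport members fell less, such as SLC2A3 (-1.56 ± 0.15, a gene with a near-identical neighbour), PDK1 (-1.06 ± 0.17), PGK1 (-0.86 ± 0.11) and ENO1 (-0.78 ± 0.11). SLC2A1, the main glucose transporter of most lines, did not pass the test (0.13 ± 0.11, adjusted p = 0.441). Oxygen was not recorded in the labels.

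Genes of retinoid metabolism and response had 3 of 17 members lower (17.6%), 1 higher (5.88%, near the 6.47% of all genes tested) and a median of -0.34. CYP26A1, which degrades retinoic acid, went from 829, 1604 and 1559 to 386, 375 and 390.1 (log2 -1.73 ± 0.29 (SE), limma adjusted p = 2.79e-04), and no read of it was found in the untreated or DAC libraries. HIC1, a transcriptional repressor, fell (log2 -0.87 ± 0.21, adjusted p = 0.00516), a call lost in 7 of 23 settings. RDH10, which oxidises retinol toward retinoic acid, rose from 391, 266 and 198 to 559, 538 and 497 (log2 0.95 ± 0.17 (SE), limma adjusted p = 4.48e-04). ICAM1 is the other member that fell.

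DAC enters DNA only in replicating cells. Of 34 DNA replication genes 12 rose and none fell, 30 had a positive log2 fold change, and the median was 0.69. E2F2, an activator of the S phase program, went from 153, 129 and 87.8 to 368, 389 and 377 (log2 1.64 ± 0.17 (SE), limma adjusted p = 1.13e-06). The replication licensing factor CDC6 had 143, 131 and 71.1 against 270.2, 299 and 245 (log2 1.29 ± 0.20 (SE), limma adjusted p = 1.17e-04), and PCNA, the sliding clamp, 578, 529 and 456 against 1151, 1041 and 942 (log2 1.00 ± 0.15 (SE), limma adjusted p = 5.87e-05). The groups did not overlap in these 3 genes. CCNE2 rose at a low level (1.43 ± 0.30). Without ATRA replicate 3, in which E2F2, CDC6 and PCNA were lowest, 8 members were called. Mitosis genes rose in 1 of 36 cases, 2.78% against 6.47% of all genes tested, with a median of 0.31. The gene that rose was CDK1 (0.62 ± 0.16, adjusted p = 0.00923, lost in 16 of 23 settings). Of 12 CDK inhibitor and cyclin D genes 3 rose and 2 fell (median 0.10). CCND2 went from 607, 598 and 545 to 1635, 1663 and 1703 and CCND1 from 6.27, 21.6 and 8.36 to 75.6, 58.5 and 81.7 (log2 1.51 ± 0.09 and 2.65 ± 0.35; limma adjusted p = 1.60e-09 and 2.21e-05), CDK4 rose (0.64 ± 0.14), and the inhibitors CDKN2C (-1.15 ± 0.18) and CDKN1B (-0.47 ± 0.10) fell.

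Targets of p53 had 12 of 31 members higher, 4 lower and a median of 0.54. TP53I3, a quinone oxidoreductase, went from 19.7, 23.1 and 35.1 to 199, 249 and 231 (log2 3.11 ± 0.32 (SE), limma adjusted p = 1.23e-06), and PHLDA3, an inhibitor of AKT, from 48.4, 62.5 and 63.5 to 174, 203 and 189.9 (log2 1.69 ± 0.24 (SE), limma adjusted p = 4.99e-05). In both genes every DAC+ATRA library lay above every ATRA library. AEN, a nuclease of apoptosis, and the stress cytokine GDF15 rose (1.12 ± 0.11 and 1.14 ± 0.20; limma adjusted p = 4.18e-07 and 3.58e-04). BTG2, the proapoptotic PMAIP1 (-2.24 ± 0.23), PLK3 (-1.60 ± 0.13) and RRM2B (-0.60 ± 0.10) were the 4 members that fell. Of 14 BCL2 family genes BAX, which permeabilises mitochondria, rose from 321, 276 and 291 to 517, 532 and 551 (log2 0.85 ± 0.14 (SE), limma adjusted p = 2.12e-04). MCL1, the antiapoptotic member, fell from 1421, 1399 and 1586 to 381, 638 and 528 (log2 -1.54 ± 0.17 (SE), limma adjusted p = 2.84e-06), with PMAIP1 and BMF (-1.14 ± 0.25), and the median was -0.06.

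Genes of DAC uptake and deoxynucleotide metabolism had 6 of 16 members higher and 1 lower (median 0.69). The nucleoside transporter SLC29A1 went from 13.4, 23.1 and 18.4 to 58.8, 58.5 and 61.3 (log2 1.68 ± 0.28 (SE), limma adjusted p = 2.81e-04), and SLC28A3, a concentrating transporter, from no read to 14, 4.5 and 17.4 normalised counts (limma adjusted p = 8.39e-05). TYMS, the thymidylate synthase, had 119, 95.2 and 59.4 against 171, 234 and 198 (log2 1.18 ± 0.24 (SE), limma adjusted p = 0.00132), NME1 rose (0.86 ± 0.21), and RRM2B fell. In the 4 named genes that rose the DAC+ATRA libraries lay above the ATRA libraries, but without ATRA replicate 3 the higher count was 2. Among DNA methylation enzymes 2 of 13 fell and none rose (median -0.09). DNMT3A, a de novo methyltransferase, had 477, 579 and 596 against 286, 304 and 279 (log2 -0.92 ± 0.16 (SE), limma adjusted p = 3.56e-04), and TET1, which oxidises methylcytosine, 226, 223 and 179.7 against 146, 95.7 and 115 (log2 -0.83 ± 0.19 (SE), limma adjusted p = 0.00409). DNMT1, the enzyme that DAC traps, overlapped between groups (44.8, 51.3 and 28.4 against 58.8, 46.2 and 63.3, adjusted p = 0.259). DNMT3B had at most 4.20 normalised counts in any of the 6 libraries and was not tested. Counts are per transcript row, so these low levels may be understated where reads fit several rows.

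Of 42 interferon-stimulated genes 3 (7.14%) rose and 1 (2.38%) fell, shares near or under those of all genes, with a median of 0.20. ISG15, a ubiquitin-like modifier, went from 80.6, 72.9 and 83.6 to 185, 170.0 and 162 (log2 1.12 ± 0.20 (SE), limma adjusted p = 4.44e-04), TRIM22, a restriction factor, from 916, 1008 and 1101 to 2223, 1855 and 1892 (log2 0.98 ± 0.14 (SE), limma adjusted p = 5.59e-05), and LGALS3BP rose (1.66 ± 0.43, adjusted p = 0.00975, lost in 10 of 23 settings). All 3 had separate groups. GBP2, a guanylate-binding GTPase, fell from 1242, 1724 and 1475 to 444, 425 and 428 (log2 -1.76 ± 0.14 (SE), limma adjusted p = 4.64e-08). Its relative GBP4 had non-overlapping groups (1199, 1499 and 1286 against 735, 679 and 674) yet an adjusted p of 0.117 in limma. It was called by DESeq2, edgeR and 3 other settings. Of 13 nucleic acid sensing genes 1 rose (7.69%, near the 6.47% of all genes tested) and none fell (median -0.27). The gene that rose was TLR8, at a low level (2.93 ± 0.60). DDX58, the RIG-I sensor, IFIH1 and the adaptor MAVS were not called (log2 -0.67 ± 0.25, -0.48 ± 0.26 and -0.31 ± 0.18; adjusted p = 0.0678, 0.209 and 0.26). MHC class I genes had 2 of 14 members higher and none lower (median 0.41), CALR (1.16 ± 0.14) and HLA-B (0.45 ± 0.12, adjusted p = 0.00839, lost in 16 of 23 settings). None of 7 MHC class II genes was called (median 0.23).

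Germline and cancer/testis genes are often methylated in somatic cells, and 12 of 79 reached the level for a test. Of these 5 rose and none fell (median 0.52). GTSF1, described above, was one of them, and MAGEB2 went from 6.27, 8.19 and 3.34 to 69.99, 77.7 and 84.7 (log2 3.56 ± 0.28 (SE), limma adjusted p = 3.48e-08). TKTL1 (11.2, 1.13 and 20.4 from no read) and TDRD9 (3.58, 0 and 2.51 to 5.6, 10.1 and 10.2) had small counts, and each lost its call in 8 settings. PIWIL4, of the piRNA pathway, completes the 5 (0.87 ± 0.12, adjusted p = 3.72e-05). Without ATRA replicate 2 the count was 3. Of 11 domesticated retroviral genes 1 rose (9.09%, against 6.47% of all genes tested) and none fell (median 0.26). The gene that rose was ERV3-1 (196, 259 and 271 to 377, 399.6 and 408, log2 0.72 ± 0.16, limma adjusted p = 0.00378). Its zinc finger neighbour ZNF117 was not called (0.65 ± 0.29, adjusted p = 0.115).

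Among metallothioneins, which bind zinc and copper and whose list was drawn up after the values were seen, 6 of 7 tested rose (median 1.35). MT1X went from 318, 307 and 278 to 841, 688 and 635 (log2 1.25 ± 0.13 (SE), limma adjusted p = 1.13e-06), and MT1G from 41.2, 32.7 and 41 to 133, 114 and 107 (log2 1.60 ± 0.22). These genes are near-identical, and the share of each is uncertain. In the list of endoplasmic reticulum chaperones, drawn up in the same way, 7 of 19 rose and 2 fell (median 0.34). HSPA5, or BiP, had 4055, 3944 and 3642 against 5816, 7424 and 7913 (log2 0.85 ± 0.14 (SE), limma adjusted p = 1.60e-04), CALR 12936, 9472 and 8372 against 23049, 22372 and 22076 (log2 1.16 ± 0.14), and the abundant P4HB rose (0.71 ± 0.12). The DAC+ATRA libraries of these chaperone genes lay above all ATRA libraries. XBP1 and ERO1B were the members that fell (-0.96 ± 0.17 and -0.71 ± 0.15). Lysosomal genes had 8 of 37 higher and 1 lower (median 0.26). CTSL, a cathepsin, went from 39.4, 36.5 and 47.7 to 172, 154 and 162 (log2 1.97 ± 0.21 (SE), limma adjusted p = 1.46e-06), PSAP, the saposin precursor, from 319.8, 406 and 344 to 834, 975 and 992 (log2 1.39 ± 0.20), and ACP5, or tartrate-resistant acid phosphatase, from 0.896, 2.23 and 8.36 to 43.4, 47.3 and 56.2 (log2 3.69 ± 0.69). CTSH fell (-0.80 ± 0.14).

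Over all genes tested 6.47% rose and 5.46% fell. Cytosolic ribosomal protein genes had 2 of 81 higher (2.47%) and 7 lower (8.64%), with a median of -0.08 and RPL37A at -0.71 ± 0.14. Without ATRA replicate 3 only 1 of them was lower. Mitochondrial ribosomal proteins had 4 of 76 higher (5.26%, median 0.18, 0 without ATRA replicate 2). Oxidative phosphorylation subunits had 7 of 75 higher (9.33%, median 0.23, 2 without ATRA replicate 2), such as NDUFB7 (0.79 ± 0.13). None was lower in either list. ATF4 and serine pathway genes had 2 of 24 lower (8.33%) and none higher (median 0.31). Both that fell, ATF3 (-1.93 ± 0.47) and PPP1R15A (-1.49 ± 0.12), also stand among the immediate early genes. The call of ATF3 was lost in 8 of 22 settings, among them each that left out an ATRA or DAC+ATRA library (adjusted p up to 0.0341). Of 354 ZNF genes 9 rose (2.54%) and 10 fell (2.82%), under the shares of all genes tested, with a median of -0.01. Among them were ZNF350 (1.24 ± 0.18) and ZNF292 (-1.13 ± 0.13). Only 4 rose without DAC+ATRA replicate 2, and 5 fell without ATRA replicate 2. Replication-dependent histone genes had 2 of 61 higher (3.28%) and 8 lower (13.1%), with a median of -0.13 and 4 lower without ATRA replicate 2. The linker histone H1-1 rose from 23.3, 14.9 and 12.5 to 144, 104 and 104 (log2 2.75 ± 0.23 (SE), limma adjusted p = 5.16e-08) and the testis form H1-6 from 3.58, 5.95 and 3.34 to 30.8, 29.3 and 35.7 (log2 2.67 ± 0.34 (SE), limma adjusted p = 1.29e-05). H1-3 fell from 1965, 2869 and 2171 to 1463, 1024 and 1069 (log2 -0.98 ± 0.14 (SE), limma adjusted p = 4.04e-05). Histone genes share sequence, so reads could be split between copies.

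The libraries were made from total RNA depleted of ribosomal RNA and so also gave non-coding genes. Of 2772 genes of other biotypes tested, 2181 of them lncRNA genes, 154 (5.56%) were called, 54 higher (1.95%) and 100 lower (3.61%). MIR34AHG, the host transcript of the p53-induced miR-34a, went from 42.1, 52.1 and 60.2 to 199, 163 and 195 normalised counts (log2 1.84 ± 0.20 (SE), limma adjusted p = 2.39e-06). LINC00599 had 286, 492 and 513 against 1218, 1126 and 1237 (log2 1.52 ± 0.17 (SE), limma adjusted p = 3.05e-06), and the U1-like RNVU1-34 24.2, 11.9 and 13.4 against 98, 96.8 and 122 (log2 2.66 ± 0.29 (SE), limma adjusted p = 2.19e-06). Each of the 3 had separate groups. RN7SKP9 lies on the same strand within UBAC2, so its rise (34, 50.6 and 30.9 to 122, 119 and 86.8) may hold reads of that gene. Lower were MIR210HG, the host of a hypoxia-induced microRNA (42.1, 106 and 95.3 to 21, 7.88 and 4.08; log2 -2.94 ± 0.47 (SE), limma adjusted p = 1.86e-04), and OLMALINC (106, 135 and 91.1 to 11.2, 32.6 and 27.6; log2 -2.28 ± 0.30 (SE), limma adjusted p = 2.50e-05), with ITPR1-DT and SCAT1 down to 2.8, 15.8 and 14.3 and 11.2, 6.75 and 11.2.

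DAC was also given without ATRA, and that comparison (DAC against untreated) shares no library with the one above, although the untreated libraries are labelled 96 h. It called 848 genes (7.97%), 457 higher (4.29%) and 391 lower (3.67%). Of the 689 genes higher with DAC in the presence of ATRA, 226 were also higher with DAC alone, which is 32.8% of the former and 49.5% of the latter list. Of the 581 lower genes 198 were also lower, 34.1% and 50.6% of the lists. Called or not, the log2 fold change had the same sign in 89.3% of the higher and 88.6% of the lower genes, against 69.2% of all genes tested. Opposite calls were made for 9 genes, named after their values were seen: CAMK1, ISG15, SIGLEC1 and THBS1 were higher with ATRA present and lower without it, and ABCA1, ANOS1, CARMIL1, CST7 and FRAT1 the reverse.

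The difference between the DAC effects with and without ATRA was itself tested as an interaction, and 170 genes (1.6%) were called, 77 positive (0.724%) and 93 negative (0.874%). MPO rose in both settings, by log2 3.73 ± 0.18 with ATRA and 3.83 ± 0.18 without, and the difference did not pass the test (interaction -0.10 ± 0.25 (SE), adjusted p = 0.915). The levels differed, since MPO averaged 22033 ± 5415 normalised counts in DAC (SD, n = 3) and 10424 ± 1061 in DAC+ATRA. CCN4 had a positive interaction (5.71 ± 0.85 (SE), adjusted p = 4.67e-04), with 1.27, 7.84 and 0 in the DAC libraries, against 465, 466 and 423 in DAC+ATRA. INSYN2B had one too (5.08 ± 0.96 (SE), adjusted p = 0.00392). For THBS1 the DAC effect turned from -1.53 ± 0.17 without ATRA to 1.02 ± 0.17 with it (interaction 2.55 ± 0.24 (SE), adjusted p = 3.45e-06), on a level of 106 ± 12.2 in untreated and 3789.7 ± 437 in ATRA libraries. RASGEF1B, a guanine nucleotide exchange factor, had a negative interaction (-4.20 ± 0.54 (SE), adjusted p = 1.23e-04), with 14.8, 25.2 and 22 in untreated and 163, 213 and 126 in ATRA libraries. CCL2 fell with DAC where ATRA was present (-2.17 ± 0.14) and did not pass the test without it (0.20 ± 0.14, adjusted p = 0.377; interaction -2.37 ± 0.20 (SE), adjusted p = 1.94e-06). MMP9 rose less with ATRA than without (2.24 ± 0.17 against 4.63 ± 0.17; interaction -2.39 ± 0.24 (SE), adjusted p = 8.61e-06). Of the 42 interferon-stimulated genes 20 were lower with DAC alone and 1 with ATRA present, with medians of -0.82 and 0.20; this difference over the list was not tested. Gene by gene, 12 of the 42 had a called interaction, all positive, ISG15 among them (2.05 ± 0.28 (SE), adjusted p = 2.01e-04). Some other lists had like counts in both settings. With DAC alone 11 of 31 p53 targets were higher and 14 of 27 hypoxia response genes lower, against 12 and 15 with ATRA present. Immediate early genes (13 of 35 lower with DAC alone, 28 with ATRA) and DNA replication genes (2 of 34 higher, then 12) differed more. These list differences were not tested.

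**Figure D5:**
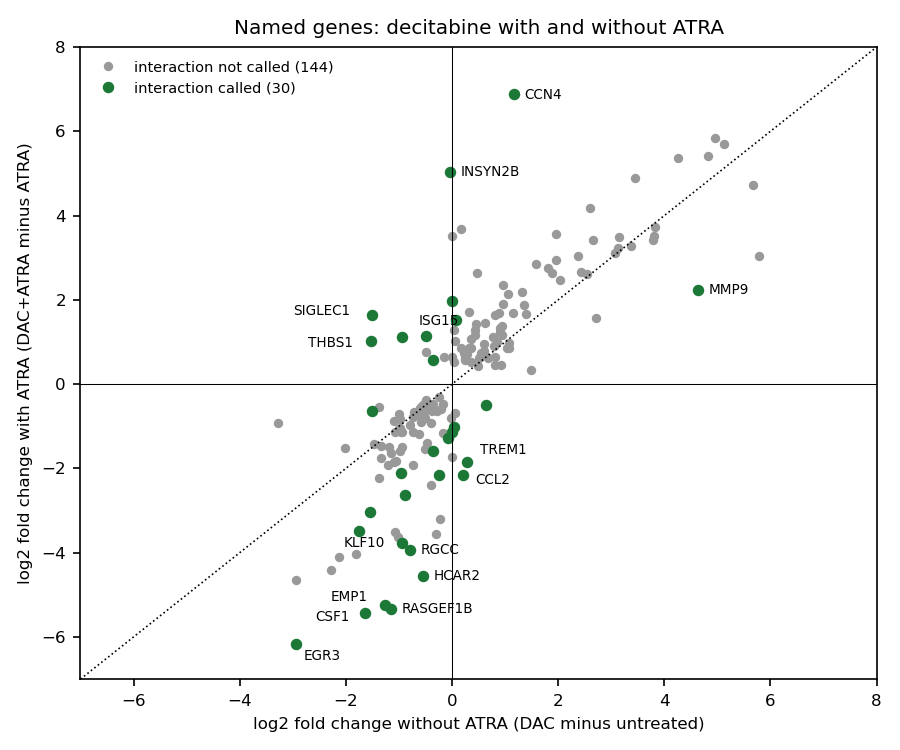
Log2 fold change with DAC in the presence of ATRA (vertical axis) against that without ATRA (horizontal axis) for 174 named genes, with equality as a dotted line. The 30 genes with a called interaction are green; CCN4 and INSYN2B lie far above the line and RASGEF1B, EMP1 and HCAR2 far below it.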

How the data were processed

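The series holds 12 strand-specific libraries of MOLM-13 total RNA depleted of ribosomal RNA, 3 in each of 4 groups, assigned by their labels. Per the labels and methods, the authors used FastQC, STAR, HTSeq and DESeq2 on build hg38, with versions not given in the sources used here. The deposited signal is the read count per transcript row divided by 1 factor per library. Dividing by the smallest step gave whole reads for 100% of values within 0.01. Rows were summed per symbol and annotated with GENCODE (88.9% of 100502 rows matched). Rows are transcripts, and the treatment of reads that fit several of them is not given in the sources used here. Levels of genes with several rows, such as CD44 (10 rows) and MYC (8 rows), may be understated and their changes missed. Genes with 1 row, fitted alone, gave 639 calls of 2852, against 1270 of 10641 in the main fit. The part of the row number in this was not tested.

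Limma 3.58.1 (trend) in R 4.3.3 fitted log2(normalised count + 1) over all 12 libraries with a term per group, for genes that reached 10 normalised counts in 3 or more libraries. P-values were adjusted by Benjamini-Hochberg over all genes tested and called under 0.01. The reads went to edgeR 4.0.16 and DESeq2 1.42.0 as alternatives. Others changed the scaling, pseudocount, filter, depth, samples fitted or threshold, or left out 1 library. The fit was tested on simulated data. The study tested protein-coding transcripts with DESeq2. Limma was chosen here as the main test because the deposited values are normalised, and DESeq2 was run only on the recovered reads.

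Members and lists were chosen with earlier results of these data known. Named genes were the 12 largest rises and falls with a mean of at least 50 normalised counts and no overlap, up to 4 called members per direction of each list, 14 genes the study discusses, up to 6 genes switched on and 6 switched off, 4 non-coding genes per direction, the 4 most abundant called genes per direction, DNMT1 and DNMT3B, and 3 interactions per direction. Genes named beyond this rule belong to lists drawn up after the values were seen or to small counts given in full. Some genes that meet it are not reported here. Lists are described by counts and medians, without set tests. Their counts stand beside 6.47% higher and 5.46% lower over all genes tested. Same-numbered ATRA and DAC+ATRA libraries did not deviate together (r = 0.06, -0.00 and 0.04), so no block was used. Replicate libraries differed beyond sampling noise (chi-square per degree of freedom 2.20 to 21.7). Python 3.11.15 drew the figures.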

Additional observations from a re-analysis of the deposited data

Results flagged for a closer look

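For 30 named genes the effect of DAC differed with and without ATRA by the interaction term of limma (adjusted p under 0.01). Of all genes tested 1.6% were called. Genes were named partly for large changes in DAC+ATRA against ATRA or large interactions, so their number cannot be set against this share. The untreated libraries behind the interaction carry a label of 96 h and the other groups 72 h. The part of this label in the differences was not tested. Values are log2 differences, (DAC+ATRA minus ATRA) minus (DAC minus untreated). Of the 30, 10 were positive: CCN4 (5.71), INSYN2B (5.08), SIGLEC1 (3.15), THBS1 (2.55), ISG15 (2.05), CTSL (1.98), GDF15 (1.62), CCND2 (1.45), CEBPA (0.92) and ALOX12 (0.88). In ALOX12 DAC lowered the transcript in both settings, by less where ATRA was present. CTSL and CCND2 had no change with DAC alone that passed the test (adjusted p = 0.983 and 0.708). The calls of CCN4, INSYN2B, CEBPA, ALOX12, HCAR2 and CD44 were lost in 3 to 12 of the alternative settings.

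The 20 negative differences were led by RASGEF1B (-4.20), HCAR2 (-4.01), EMP1 (-3.97) and CSF1 (-3.78). EGR3 (-3.21) and RGCC (-3.14) followed, with the Krüppel-like factors KLF10 (-2.82) and KLF6 (-1.75). Genes of secreted or surface proteins were MMP9 (-2.39), CCL2 (-2.37), TREM1 (-2.14), CD44 (-1.91), CXCL8 (-1.75) and ITGAX (-1.19). The others were BTG2 (-1.50), PLK3 (-1.23), SCD (-1.15), MEIS1 (-1.13), CST7 (-1.12) and NCF1 (-1.05). MMP9 rose in both settings and CST7 rose with DAC alone, while EGR3, BTG2 and CXCL8 fell in both and by more where ATRA was present.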

How the results depend on the processing

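The cause of the changes below was not tested. Counts are given as all genes called, then higher and lower. In DAC+ATRA against ATRA an adjusted p under 0.05 called 2244 (1265 and 979), a required change of over 2-fold 536 (296 and 240) and genes with 1 transcript row 639 (372 and 267 of 2852 tested). Without 1 library the counts ran from 819 to 1779 (418 to 972 and 372 to 807): lowest without ATRA replicate 2 (819; 447 and 372) or DAC+ATRA replicate 2 (819; 420 and 399), and highest without DAC replicate 3, which enters the variance only. Without ATRA replicate 3, DAC+ATRA replicate 1 or DAC+ATRA replicate 3 the higher counts were 418, 449 and 458. DESeq2 called 1622 and edgeR 1400. Of the 1270 genes, 799 to 1270 remained called without 1 library and 1259 with DESeq2, and none changed sign in any setting. The share of calls that were higher ran from 49.2% to 58.7%.

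DAC against untreated gave 1638 (863 and 775) at 0.05, 361 (221 and 140) over 2-fold, 371 (221 and 150) with only these groups fitted, 457 (249 and 208) with 1 row, and 509 to 1385 (310 to 702 and 193 to 683; 540 and 509 without untreated replicate 1 or 2, and 1385 without DAC replicate 3) without 1 library. The interaction gave 386 (174 and 212) at 0.05, 323 (139 and 184) with DESeq2, 58 negative with 1 row, and 106 to 262 (39 to 116 and 67 to 146) without 1 library. Non-coding counts, 154 in all, were 83 to 199 (30 to 72 and 53 to 127) without 1 library, with 83, 97 and 96 without ATRA replicate 2, ATRA replicate 3 or DAC+ATRA replicate 2. With the replicate number as a block 1141 genes were called (620 and 521). Same-numbered libraries correlated at 0.06, -0.00 and 0.04, so the numbers do not pair them. No called value of a named gene reversed in any setting run, and in DAC+ATRA against ATRA 329 gene-by-setting values lost and 5 gained the call. Beside the genes whose lost calls the report gives, SIGLEC1, TLR8, TET1, TYMS, NME1, CCNE2, BMF, CDK4, CDKN1B, KIT, CCR1, HOXA5, ALOX12, FDPS, ERV3-1, RPL37A, RRAD, MBD3L3, TSPAN16 and ERO1B lost theirs without at least 1 library. Among lists, lysosomal genes called higher ran from 6 to 13 and oxidative phosphorylation subunits from 2 to 14 without 1 library.

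With 3 technical replicates per group and 5.61 M to 10.7 M reads per library, levels under about 10 normalised counts rest on few reads, and intervals cover these libraries only. The ATRA libraries were the deeper, the libraries without drug are labelled untreated, and the spread between independent cultures is not measured.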
